A study of Homo sapiens with 16 samples.

Results

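The dependence of the Nutlin-3a response on RFX7 was measured in U2OS cells, a human osteosarcoma line that carries wild-type p53. All 16 libraries of the series entered, 4 in each of 4 groups. Each group combined 1 of 2 transfections, a non-targeting control (siControl) or siRNA directed at RFX7 (siRFX7), with 24 h of either 10 µM Nutlin-3a or the solvent DMSO. For each gene, the log2 fold change of Nutlin-3a over DMSO in siRFX7 minus that in siControl is called the difference below. It could be formed for 21339 of the 23396 genes in any table. A negative difference covers a smaller rise, a lost rise and a deeper fall with Nutlin-3a in siRFX7.

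The transcription factor p53 is kept at a low level by MDM2, a ubiquitin ligase that binds it and marks it for degradation. Nutlin-3a occupies the p53-binding pocket of MDM2, so that p53 accumulates, switches on genes of growth arrest, DNA repair and cell death, and, through the cell cycle inhibitor p21, lowers the genes of cell division. RFX7 belongs to the regulatory factor X family, whose members bind X-box motifs in promoters, and it is known as a factor that p53 engages to reach genes that restrain growth.

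No value of a single library entered, since the 4 tables used here are the authors' comparisons of 4 libraries with 4. Errors are therefore standard errors (SE) that the authors deposited or that were combined from those. The labels number the libraries but do not say that they came from separate cultures, so that p-values may measure technical spread only. Base means, the mean normalised read counts over a table's 8 libraries, added up to between 27946400 and 35311100 in the authors' deposited tables. Fewer cells of a kind and less RNA per cell cannot be told apart in these bulk libraries. Nor can the loss of RFX7 be told apart from any other effect of its siRNA, because all siRFX7 libraries share the same label.

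By the authors' deposited tables of Nutlin-3a over DMSO, RFX7 had a base mean of 2447 in siControl and of 355 in siRFX7. The scales of these 2 base means differ by 0.40 (log2), so the pair overstates the gap. In siRFX7 over siControl, RFX7 stood at -2.42 with DMSO and -2.37 with Nutlin-3a by the authors' deposited tables. The direction of the fold changes of siRFX7 over siControl was read from RFX7 and that of Nutlin-3a over DMSO from CDKN1A, so the signs of these 2 genes in those tables check nothing. Group levels in normalised counts, rebuilt from base means and fold changes and so without an error of their own, were 2237 for RFX7 in siControl with DMSO and 2657 with Nutlin-3a. In siRFX7 they were 419 and 516. The RFX7 transcript was thus low in both siRFX7 groups, and its difference of 0.05 ± 0.10 (SE) did not pass the test (adjusted p = 0.99997). Of 11 markers of the osteoblast lineage, 8 were present in the authors' deposited siControl table, and 6 of these had a base mean above 100. SP7, IBSP and DLX5 were not in that table. The 3 of 6 leukocyte markers present there summed to a base mean of 11.2 in the authors' deposited table.

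The difference passed an adjusted p of 0.05 for 200 of 21339 genes, a share of 0.937%. It was negative for 163 of them (0.764%) and positive for 37 (0.173%). The median over all tested genes was -0.00055, 50.2% of genes lay below 0, and the range from the 5th to the 95th percentile was -0.52 to 0.49. Called differences were mostly modest, with a median size of 0.33 for the negative and 0.31 for the positive ones. A size of at least 0.5 was reached by 44 negative and 7 positive differences, and a size of at least 1 by 14 negative and 0 positive ones. Without adjustment 1349 genes (6.32%) had a p under 0.05, and an alternative with statistics scaled by their robust SD called 132 genes.

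**Figure D1:**
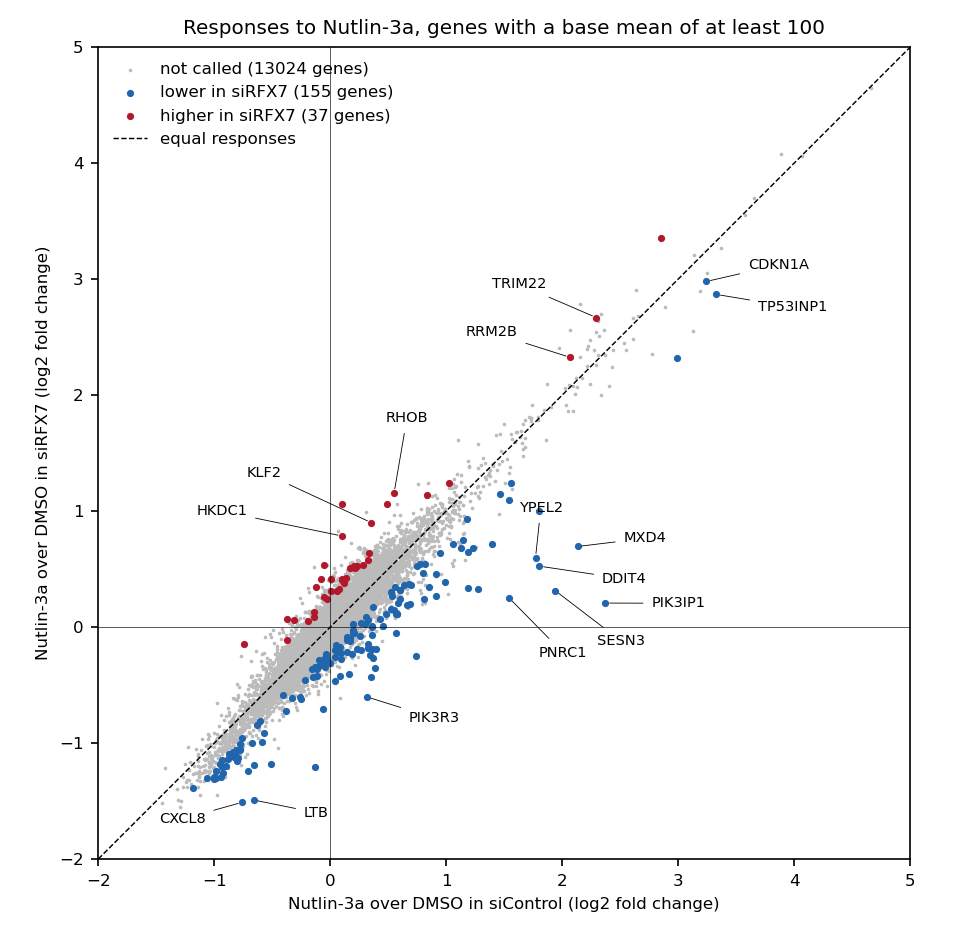
Log2 fold change of Nutlin-3a over DMSO in siControl (x axis) against that in siRFX7 (y axis) for genes with a mean base mean of at least 100, 1 point a gene, with called genes in colour and the dashed line marking equal responses; 13215 genes are drawn and 1 lies outside the axes. The 155 called lower genes lie under the line from the strongly induced end (CDKN1A, TP53INP1) to the repressed end (CXCL8, LTB), and the 37 called higher genes lie above it.

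The called genes were sorted by what Nutlin-3a did to them in siControl, where 37.9% of genes in the authors' deposited table passed the authors' adjusted p of 0.05, and in siRFX7, where 39.1% did. These classes rest on the same libraries as the difference and are a description. Of the 163 lower genes, 92 rose in siControl, with a median of 0.60 there and 0.21 in siRFX7 by the authors' deposited tables. Of these 92, 49 still rose in siRFX7, 29 were no longer called and 14 fell. Another 45 fell in siControl and fell further in siRFX7, with medians of -0.78 and -1.09 by the authors' deposited tables. The last 26 were not called in siControl and fell in siRFX7. Among the 37 higher genes, 17 rose in siControl and rose more in siRFX7, 13 rose in siRFX7 only by the authors' call, and 7 fell in siControl.

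Among called genes with a mean base mean of at least 100, PIK3IP1 and SESN3 had the lowest differences, and MXD4, PNRC1 and DDIT4 came next. PIK3IP1 encodes a membrane protein that binds and inhibits PI3 kinase, the enzyme that starts the AKT growth signal. Its group levels were 82.0 in siControl with DMSO, 425 in siControl with Nutlin-3a, 64.3 in siRFX7 with DMSO and 74.2 in siRFX7 with Nutlin-3a. Only the siControl group with Nutlin-3a was high. The rise was 5.18-fold in siControl and 1.15-fold in siRFX7 by the authors' deposited tables, and the latter was not called there. The difference was -2.17 ± 0.25 (SE; adjusted p = 1.13e-14).

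SESN3, a sestrin that restrains mTORC1, the kinase complex that drives cell growth, had group levels of 232 and 891 in siControl and 276 and 343 in siRFX7, with DMSO given before Nutlin-3a here and below. Its 3.84-fold rise in siControl became a 1.24-fold rise in siRFX7 by the authors' deposited tables, and the difference was -1.63 ± 0.14 (adjusted p = 1.44e-29). DDIT4, also called REDD1, inhibits mTORC1 under stress. Its levels were 381 and 1331 in siControl and 540 and 777 in siRFX7, so the siRFX7 group was the higher one with DMSO and the lower one with Nutlin-3a. The difference for DDIT4 was -1.28 ± 0.10 (adjusted p = 1.59e-31).

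MXD4 encodes a partner of MAX that opposes MYC at its binding sites. Its group levels were 397 and 1742 in siControl and 352 and 570 in siRFX7. A 4.38-fold rise thus became a 1.62-fold rise by the authors' deposited tables, with a difference of -1.44 ± 0.12 (adjusted p = 2.26e-30). PNRC1 is a nuclear receptor coregulator that has been described as a brake on ribosomal RNA production. It stood at 372 and 1084 in siControl and at 273 and 324 in siRFX7, with a difference of -1.30 ± 0.13 (adjusted p = 1.42e-21). In these 4 genes, unlike PIK3IP1, a rise in siRFX7 still passed the authors' test.

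**Figure D2:**
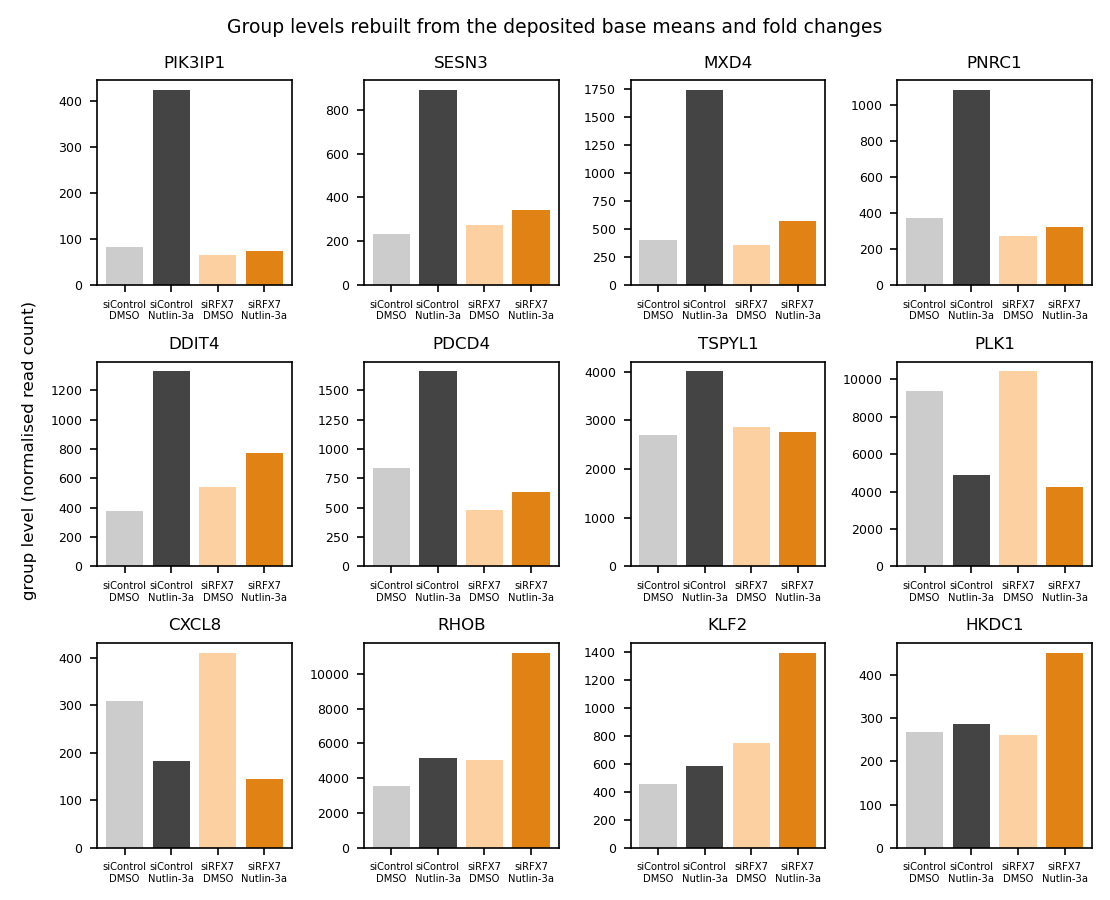
Group levels of 12 genes in normalised counts (y axis from 0, a scale of its own for each gene), rebuilt from base means and fold changes for the 4 groups on the x axis, 1 bar a group of 4 libraries; the bars carry no error. PIK3IP1, SESN3, MXD4, PNRC1, DDIT4 and PDCD4 are highest in siControl with Nutlin-3a, while RHOB, KLF2 and HKDC1 are highest in siRFX7 with Nutlin-3a.

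A list of 16 candidate RFX7 targets came from what is known of the study's publication, which could rest on the same libraries, so that its direction is not independent evidence. Of the 15 measured, 14 were called lower and 0 higher, with a median difference of -0.78 against -0.00055 over all tested genes. All 15 rose in siControl by the authors' deposited table, with a median of 1.23, and that in siRFX7 was 0.25. YPEL2, a member of the yippee-like family, had levels of 383 and 1307 in siControl and 456 and 690 in siRFX7, a difference of -1.17 ± 0.10. CCNG2 encodes cyclin G2, an unusual cyclin linked to arrest, and its 2.42-fold rise in siControl became 1.25-fold in siRFX7 by the authors' deposited tables (difference -0.94 ± 0.12). MXI1, another MAX partner, was the member not called, with a difference of 0.01 ± 0.07.

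Further members of this list differed in what was left of their rise. TSPYL2, a nucleosome assembly protein that slows proliferation, went from 1425 to 1814 in siControl and from 1307 to 971 in siRFX7, so that a rise became a fall (difference -0.78 ± 0.08). Its relative TSPYL1 went from 2711 to 4012 in siControl and stood at 2869 and 2766 in siRFX7 (difference -0.62 ± 0.06). RFX5, the family member that controls MHC class II genes, went from 3060 to 3947 in siControl and from 2102 to 1746 in siRFX7, and its difference was -0.64 ± 0.06. PDCD4, an inhibitor of translation initiation, still rose in siRFX7, and it reached 1661 in siControl and 630 in siRFX7 with Nutlin-3a. The PDCD4 difference was -0.60 ± 0.09, smaller than its gap under Nutlin-3a because its level with DMSO was also lower in siRFX7, 482 against 838. ABAT, which breaks down the transmitter GABA, also still rose in siRFX7 and had a difference of -0.55 ± 0.10.

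Promoters were read to see what the lower genes share beyond their response. RefSeq windows on GRCh38.p14, from 250 bases before to 50 after a listed start, were found for 12680 tested genes, 130 of them called lower and 24 called higher. On either strand, the X-box core in the form GTTGCTA stood in 7 of 130 lower genes (5.38%), 1 of 24 higher genes (4.17%) and 439 of all 12680 (3.46%). All 7 were among the 73 lower genes that rose in siControl (9.59%), against 3.81% of all genes that rose there. Of the 35 lower genes that fell there 0 held it, against 3.34% of all genes that fell there. At so low a share, 0 of 35 says little. The form GTTGCC, which cannot match at the same place, stood in 15.4% of lower genes and 16.6% of all. Its longer form GTTGCCA went the other way from GTTGCTA, with 3.08% of lower genes and 4.94% of all. Among genes that rose in siControl, GTTGCCA stood in 1.37% of the lower ones and 4.64% of all. These 7 stretches are shown because they are the lower genes with GTTGCTA. Each is given 5′ to 3′ on the gene's strand, with the core or its reverse complement TAGCAAC in capitals. The stretches lie at chr4:2262322-2262350 for MXD4, chr17:59331590-59331618 for YPEL2, chr17:82698761-82698789 for RAB40B, chr15:52652067-52652095 for FAM214A, chr6:116280053-116280081 for TSPYL1, chr6:134052663-134052691 for SLC2A12 and chr3:48717312-48717340 for IP6K2. YPEL2 is on the plus strand and the others on the minus strand.
MXD4: caccacgtgctGTTGCTAagctcgggctt
YPEL2: acccgcggcgtGTTGCTAtgtgctgagcc
RAB40B: cgcagctgcccTAGCAACtgcggtccacc
FAM214A: ctgtgagtgctGTTGCTAtgtgcgctctt
TSPYL1: gtaaaattactGTTGCTAtgggtaaattc
SLC2A12: gctgcttggaaTAGCAACagcctgtgtca
IP6K2: tcctggcacccTAGCAACagcgcctttca

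The 7 genes above do not head the list by size alone. MXD4 and YPEL2 are among the strongest, RAB40B, a small GTPase that recruits ubiquitin ligases, had a difference of -0.84 ± 0.15, and FAM214A had one of -0.80 ± 0.16. SLC2A12, a glucose transporter, and IP6K2, an inositol phosphate kinase, had -0.46 ± 0.13 and -0.40 ± 0.07. PIK3IP1, SESN3, PNRC1, DDIT4 and PDCD4 held no GTTGCTA in these windows. A match is a run of letters and no measured binding site, and of the called genes with a promoter 42 had more than 1 listed start, any of which counted.

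Within PI3K and mTORC1 signalling a few brakes had a smaller rise in siRFX7. Of 23 measured brakes, 4 were called lower, against 0.764% of all tested genes, and 0 higher. They were PIK3IP1, SESN3, DDIT4 and SESN2, and the list median was -0.0043. SESN2, the sestrin that senses leucine, rose 2.95-fold in siControl and 2.37-fold in siRFX7 by the authors' deposited tables (difference -0.32 ± 0.07). Its group levels were 1377 and 4062 in siControl and 1923 and 4555 in siRFX7. The SESN2 level was thus higher in siRFX7 under each treatment, and only its response was smaller. Unlike PIK3IP1, SESN3 and DDIT4, it is not a candidate RFX7 target. The most highly expressed other members, AKT1S1, TSC2 and NPRL3, had differences of -0.06, 0.06 and -0.02, none of them called. SESN1, the sestrin under direct p53 control, was singled out after its value was seen, and it had a difference of -0.01 ± 0.10 beside a rise of 2.09 by the authors' deposited table for siControl.

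On the receptor side of that pathway, 2 of 23 genes were called lower and 0 higher, with a median of -0.0019. PIK3R3 encodes a regulatory subunit of PI3 kinase, so it acts towards the signal that PIK3IP1 and DDIT4 oppose. It went from 982 to 1224 in siControl and from 765 to 503 in siRFX7, a difference of -0.92 ± 0.09 (adjusted p = 2.05e-19). The IGF1 receptor gene IGF1R rose by 0.60 in siControl and 0.32 in siRFX7 by the authors' deposited tables (difference -0.29 ± 0.07), and was no longer called with robust scaling (adjusted p = 0.0709). AKT2, FGFR1 and MET, the other most highly expressed members, lay between -0.04 and -0.02 and were not called.

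Genes known to respond to FOXO factors, which AKT holds out of the nucleus, also held lower responses. Of 19 measured, 6 were called lower and 0 higher, against 0.764% and 0.173% of all tested genes. In the list 17 lay below 0, and the median was -0.21. Besides PIK3IP1, SESN3, DDIT4 and CCNG2 these were KLHL24 (-0.54 ± 0.14), a ubiquitin ligase adaptor, and CITED2 (-0.26 ± 0.07), a coregulator, which robust scaling no longer called (adjusted p = 0.179). The list shares PIK3IP1, SESN3 and DDIT4 with the PI3K brakes, and these and CCNG2 with the candidate RFX7 targets. Of its called members, only KLHL24 and CITED2 are in neither of those lists. In siControl 14 of its genes rose by the authors' deposited table. GADD45A, SOD2 and RBL2, its most highly expressed other members, had differences of -0.16, -0.25 and -0.10 and were not called.

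Around MYC, 2 of 13 genes were called lower, against 0.764% of all tested genes, and 0 higher, with a median of -0.07. Those were MXD4 and MYC itself, whose response was -0.06 ± 0.04 in siControl and -0.27 ± 0.04 in siRFX7 by the authors' deposited tables. The MYC difference of -0.21 ± 0.06 (adjusted p = 0.041) did not pass with robust scaling (0.27). The binding partner MAX had a difference of -0.02 ± 0.05. Of the antiproliferative BTG and TOB genes, which link mRNA decay to growth arrest, 2 of 5 were called lower: BTG1 (-0.48 ± 0.11) and TOB1 (-0.46 ± 0.08). TOB1, like MXD4, is also a candidate RFX7 target. BTG1 went from 424 to 673 in siControl and from 564 to 642 in siRFX7, and TOB1 from 1712 to 2551 and from 1586 to 1713. BTG2, a direct p53 target, had a difference of 0.05 ± 0.06.

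The p53 targets themselves kept rising. All 24 measured rose in both authors' deposited tables, with a median of 1.59 in siControl against 1.598 in siRFX7, and 3 were called lower and 1 higher, around a median difference of -0.01. The CDK inhibitor gene CDKN1A (p21) rose 9.46-fold in siControl and 7.88-fold in siRFX7 by the authors' deposited tables, and the difference was -0.26 ± 0.05 (adjusted p = 0.000305). Its group levels were 4108 and 38870 in siControl and 6210 and 48969 in siRFX7, so the siRFX7 groups were the higher ones under each treatment. TP53INP1, which promotes autophagy and cell death, reached 2659 in siControl and 1911 in siRFX7 from like levels with DMSO, 265 and 262 (difference -0.46 ± 0.10). RRM2B, the p53-inducible subunit of ribonucleotide reductase, rose more in siRFX7, by 0.26 ± 0.07, which robust scaling no longer called (adjusted p = 0.133). MDM2, PPM1D and CCNG1, the other highly expressed targets, had differences of -0.13, -0.06 and -0.01, and none was called.

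**Figure D3:**
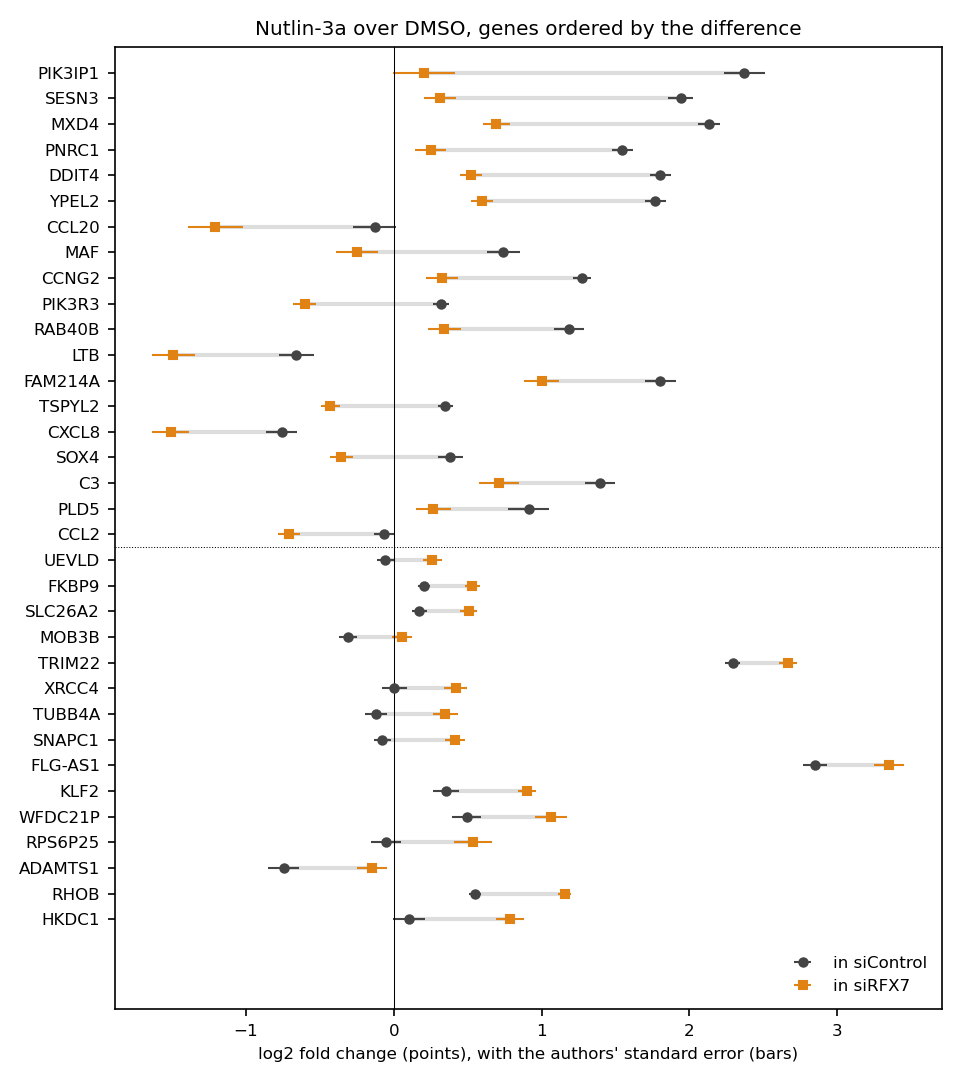
Log2 fold change of Nutlin-3a over DMSO (x axis) in siControl (circles) and siRFX7 (squares) for 19 of the 20 lowest and the 15 highest called differences (y axis, dotted line between them), with the authors' standard errors of 4 against 4 libraries as bars. From the authors' deposited tables, PIK3IP1 moves from 2.37 to 0.21, and PIK3R3, SOX4 and TSPYL2 change sign. MAF does so too, but its value in siRFX7 was not called. The positive differences are shorter, with HKDC1 the longest at 0.68.

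Other genes among the 20 lowest differences were of mixed function. MAF, a bZIP factor, went from 185 to 309 in siControl and from 171 to 144 in siRFX7 (difference -0.99 ± 0.18). Its change in siRFX7 was not called by the authors' deposited table. SOX4, a developmental transcription factor, had a response of 0.38 ± 0.08 in siControl and -0.36 ± 0.08 in siRFX7 by the authors' deposited tables (difference -0.74 ± 0.12). C3, the central complement component, went from 142 to 375 and from 126 to 206, and its difference was -0.68 ± 0.17. PLD5, a phospholipase D family member, had a difference of -0.65 ± 0.18.

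Some genes of cell division fell further in siRFX7. Of 55 G2/M genes measured, 17 were called lower and 0 higher. Of all tested genes 0.764% were called lower and 0.173% higher, and 2.06% were called at base means of 1000 to 10000. In the list 53 lay below 0, and the median difference was -0.16 against -0.00055 over all tested genes. All 55 fell with Nutlin-3a in both authors' deposited tables, with a median of -0.85 in siControl against -1.04 in siRFX7. CKS2, a subunit of the mitotic kinase CDK1, went from 4314 to 2733 in siControl and from 5198 to 2285 in siRFX7 (difference -0.53 ± 0.08). PLK1, the mitotic polo-like kinase, went from 9354 to 4862 and from 10433 to 4260 (difference -0.35 ± 0.06). Both were higher with DMSO and lower with Nutlin-3a in siRFX7 than in siControl.

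The other called members ranged from -0.35 ± 0.06 for the kinesin gene KIF2C to -0.20 ± 0.05 for the spindle factor TPX2. They include the mitotic cyclins CCNB1 (-0.32), CCNB2 (-0.22) and CCNA2 (-0.31), CDC20 (-0.33), an activator of the anaphase-promoting complex, its ubiquitin-conjugating partner UBE2C (-0.28), and the chromosomal passenger genes CDCA8 (-0.33), INCENP (-0.30) and BIRC5 (-0.25). FOXM1, MKI67 and ANLN, the most highly expressed members not called, had differences of -0.15, -0.15 and -0.07. With robust scaling 9 of the 17 were still called. In siRFX7 over siControl the list centred on 0.03 with DMSO and -0.14 with Nutlin-3a by the authors' deposited tables, where 13 and 32 of its members were called lower and 15 and 1 higher.

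The DNA replication and G1/S list held fewer calls. Of 50 genes, 4 were called lower, against 0.764% of all tested genes, and 0 higher. In the list 46 lay below 0, and the median was -0.11. MCM2, a subunit of the replicative helicase, fell to 0.44 of its DMSO level in siControl and 0.382 in siRFX7 by the authors' deposited tables (difference -0.20 ± 0.05). PCNA, the replication clamp, which p53 can also induce, was not called in siControl (-0.04 ± 0.04) and fell in siRFX7 (-0.26 ± 0.04) by the authors' deposited tables. CCNE1 (-0.28 ± 0.06), a G1/S cyclin, and E2F7 (-0.27 ± 0.06), a repressor of E2F genes, were the other called members, and robust scaling kept 2 of the 4. MCM7, TYMS and MCM4 had differences of -0.18, -0.09 and -0.16, none of them called.

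Among cyclins and CDKs of G1, 3 of 10 were called lower: CCNG2, CCNE1 and CCND1. CCND1 encodes cyclin D1, which opens G1, and it went from 14951 to 17868 in siControl and from 14705 to 13934 in siRFX7 (difference -0.33 ± 0.05). The change of CCND1 in siRFX7 was not called by the authors' deposited table. CDKN1A was the called member of 6 CDK inhibitors, all of which lay below 0, and CDKN3, CDKN1B and CDKN2C had differences of -0.10, -0.20 and -0.14.

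The cell cycle homology region, through which the DREAM complex holds division genes down, was searched for in the same windows as TTTGAA on either strand. It stood in 30 of 130 lower genes (23.1%), in 2 of 24 higher genes (8.33%) and in 14.2% of all 12680. Of the 35 lower genes that fell in siControl 15 held it (42.9%), against 16.7% of all genes that fell there and 71.7% of the 46 G2/M genes with a window. The lower genes that rose held it in 16.4%, against 12.5% of all genes that rose there. Its related form TTTAAA, which cannot match at the same place, stood in 22.3% of lower genes and 11.3% of all. The letters CCAAT stood in 60.8% and 42.3%. Neither was particular to genes that fell. Among genes that rose, TTTAAA stood in 23.3% of the lower ones and 10.8% of all, and CCAAT in 61.6% and 39.3%. Among genes that fell, these shares were 28.6% and 11.2% for TTTAAA and 65.7% and 47.0% for CCAAT. The stretches below are the called G2/M genes with the largest differences that held TTTGAA in these windows, with it or its reverse complement TTCAAA in capitals. They lie on the plus strand at chr9:89311155-89311182 for CKS2, chr16:23678849-23678876 for PLK1, chr1:43358905-43358932 for CDC20 and chr1:37692482-37692509 for CDCA8.
CKS2: gggctgtcggaTTCAAAtccggatcgtt
PLK1: ccagcgccgcgTTTGAAttcggggagga
CDC20: gacggttggatTTTGAAggagccaatag
CDCA8: tgactgtggagTTTGAAttgggtggcgg

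CDC20 held another match, in the reverse complement, 178 bases before its start.

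Inflammatory genes also held lower responses. Of 20 measured members of the list of inflammatory and NF-kB responsive genes, 7 were called lower and 0 higher. Of all tested genes 0.764% were called lower and 0.173% higher. In the list 19 lay below 0, and the median was -0.23. The chemokine gene CCL20 stood at 140 and 128 in siControl and at 178 and 77.2 in siRFX7, a difference of -1.08 ± 0.24 (adjusted p = 0.00133). CXCL8, the neutrophil chemokine interleukin-8, went from 309 to 183 and from 410 to 144 (difference -0.75 ± 0.16). CCL2, which draws monocytes, stood at 590 and 563 in siControl and 738 and 451 in siRFX7 (difference -0.64 ± 0.10). All 3 chemokines were higher in siRFX7 with DMSO and lower with Nutlin-3a.

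The called regulators of NF-kB itself were smaller. TNFAIP3 (-0.42 ± 0.08), NFKBIA (-0.32 ± 0.07) and BIRC3 (-0.33 ± 0.09) are feedback genes of the pathway, and NFKB1 (-0.24 ± 0.06) encodes its p105 and p50 proteins. Robust scaling no longer called BIRC3 (adjusted p = 0.13) and NFKB1 (0.15). NFKB2, SOD2 and RELB, the most highly expressed members not called, had differences of -0.16, -0.25 and -0.16. In siRFX7 over siControl the list centred on 0.16 with DMSO and -0.25 with Nutlin-3a by the authors' deposited tables. LTB, which encodes lymphotoxin beta, had a difference of -0.83 ± 0.19, with levels of 250 and 158 in siControl and 249 and 88.5 in siRFX7. Of the leukocyte markers, CD3E and LYZ were missing from the authors' deposited siControl table, which gave PTPRC, CD14 and CD68 base means between 2.57 and 5.21.

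AP-1 and immediate early genes went both ways. Of 27 measured, 5 were called lower and 2 higher, against 0.764% and 0.173% of all tested genes, with a median of -0.16. RHOB, described below, had the highest difference of the list, at 0.61. JUNB, an AP-1 subunit and also a candidate RFX7 target, went from 1711 to 2194 in siControl and from 1657 to 1449 in siRFX7 (difference -0.55 ± 0.09). IER3 (-0.41 ± 0.07), a survival gene of the early response, CTGF (-0.28 ± 0.06), a matricellular growth factor, and NR4A1 (-0.31 ± 0.08), an orphan nuclear receptor, were also lower, the last not with robust scaling (adjusted p = 0.127). CYR61, FOSL2 and FOSL1, the most highly expressed members not called, had differences of -0.13, -0.13 and -0.15. Of 14 feedback inhibitors of MAPK signalling 0 were called by the normal test, and 2 had an unadjusted p under 0.05. CTGF was also the called member of 14 YAP and TAZ targets.

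**Figure D4:**
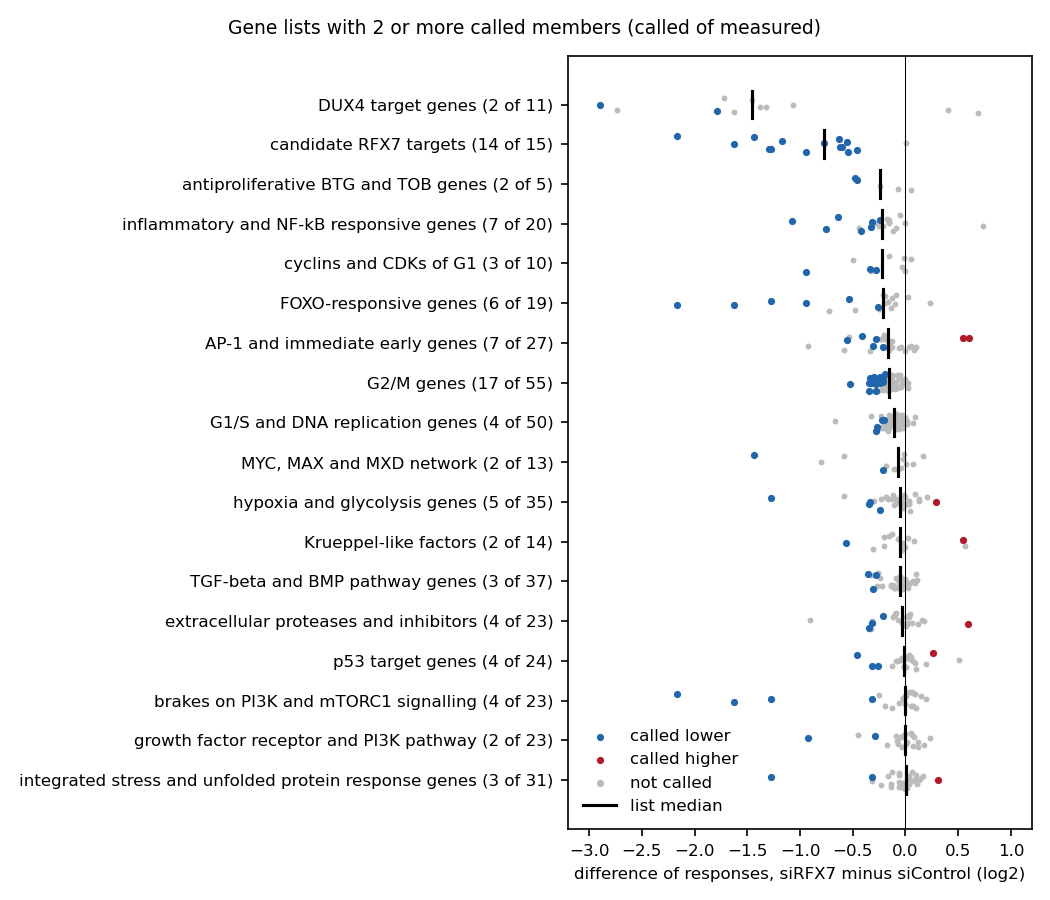
Difference of responses (x axis, log2, siRFX7 minus siControl) for the measured members of the 18 lists with at least 2 called genes, 1 point a gene with a random height within its row, called genes in colour and a black bar at each list's median. G2/M genes are packed left of 0 with a median of -0.16, whereas the p53 targets and PI3K brakes centre on 0 with a few members far to the left.

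The higher responses included those of RHOB, KLF2 and HKDC1. RHOB, a small GTPase of the early stress response, stood at 3540 and 5184 in siControl and at 5027 and 11206 in siRFX7. Its rise was 1.46-fold in siControl and 2.23-fold in siRFX7 by the authors' deposited tables, and the difference was 0.61 ± 0.06 (adjusted p = 6.82e-22). KLF2, a Krüppel-like factor, went from 458 to 585 in siControl and from 749 to 1398 in siRFX7 (difference 0.55 ± 0.11). Of 14 Krüppel-like factors the other called one, KLF9, moved in the opposite direction (-0.57 ± 0.10), and the median of that list was -0.05.

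HKDC1, a hexokinase-like enzyme, had levels of 267 and 286 in siControl and 261 and 450 in siRFX7, so that it rose only in siRFX7 by the authors' call (difference 0.68 ± 0.14, adjusted p = 0.000717). ADAMTS1, a secreted metalloprotease, fell to 0.597 of its DMSO level in siControl and was not called in siRFX7 by the authors' deposited tables (difference 0.60 ± 0.14). TRIM22, an antiviral gene that p53 induces, rose 4.90-fold in siControl and 6.36-fold in siRFX7 by the authors' deposited tables, from a lower level in siRFX7 (427 against 686). SNAPC1, a subunit of the complex that transcribes small nuclear RNA genes, had a difference of 0.49 ± 0.09 and was lower in siRFX7 under each treatment, with values of -1.61 and -1.12 in the authors' deposited tables.

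The remaining higher genes in the rule for naming were of mixed function. The brain-type tubulin gene TUBB4A had a difference of 0.47 ± 0.11, the DNA ligase partner XRCC4 one of 0.41 ± 0.12, the kinase activator-like MOB3B one of 0.37 ± 0.09, the sulfate transporter SLC26A2 one of 0.33 ± 0.08, the prolyl isomerase FKBP9 one of 0.33 ± 0.07 and UEVLD one of 0.32 ± 0.09. Robust scaling no longer called XRCC4 (adjusted p = 0.0519) and UEVLD (0.0709). FLG-AS1 (0.50 ± 0.13) is an antisense gene that robust scaling no longer called (adjusted p = 0.0555). RPS6P25 (0.59 ± 0.16) and WFDC21P (0.57 ± 0.15) are pseudogenes, and reads shared with near-identical copies make their values uncertain.

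The difference equals, but for fitting, the gap between the siRFX7 effects under Nutlin-3a and DMSO, so the authors' tables of siRFX7 over siControl show where each gene parted, from the same libraries. Under DMSO 37.4% of genes passed the authors' test and under Nutlin-3a 32.6%. Over the 163 lower genes the median effect was 0.12 with DMSO and -0.22 with Nutlin-3a by the authors' deposited tables. For the 92 that rose in siControl those medians were 0.12 and -0.34, and over the 37 higher genes -0.03 and 0.27, from the authors' deposited tables.

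The leading genes fell into several patterns on these values. MXD4, SESN3, RAB40B, MAF, SOX4, LTB and C3 were not called under DMSO and were lower under Nutlin-3a, MXD4 for instance at -0.17 ± 0.09 and -1.61 ± 0.07 by the authors' deposited tables. PNRC1, CCNG2, PIK3R3 and PDCD4 were lower under each treatment and more so under Nutlin-3a, CCNG2 at -0.60 ± 0.09 and -1.54 ± 0.07 by the authors' deposited tables. DDIT4, YPEL2, FAM214A, CCL20, CXCL8 and CCL2 were higher under DMSO and lower under Nutlin-3a, DDIT4 at 0.50 ± 0.08 and -0.77 ± 0.06 by the authors' deposited tables. PLD5, CDKN1A and SESN2 were higher under each treatment and less so under Nutlin-3a. CDKN1A stood at 0.60 ± 0.04 and 0.33 ± 0.04 by the authors' deposited tables. Among named genes with smaller differences, another pattern was a higher value under DMSO and no call under Nutlin-3a. It held for BTG1, TNFAIP3, NFKBIA, CCNB1, INCENP, UBE2C, INHBA, MMP3, TGFBI, NR4A1 and MYC. BTG1 stood at 0.41 ± 0.08 and -0.06 ± 0.07 by the authors' deposited tables.

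**Figure D5:**
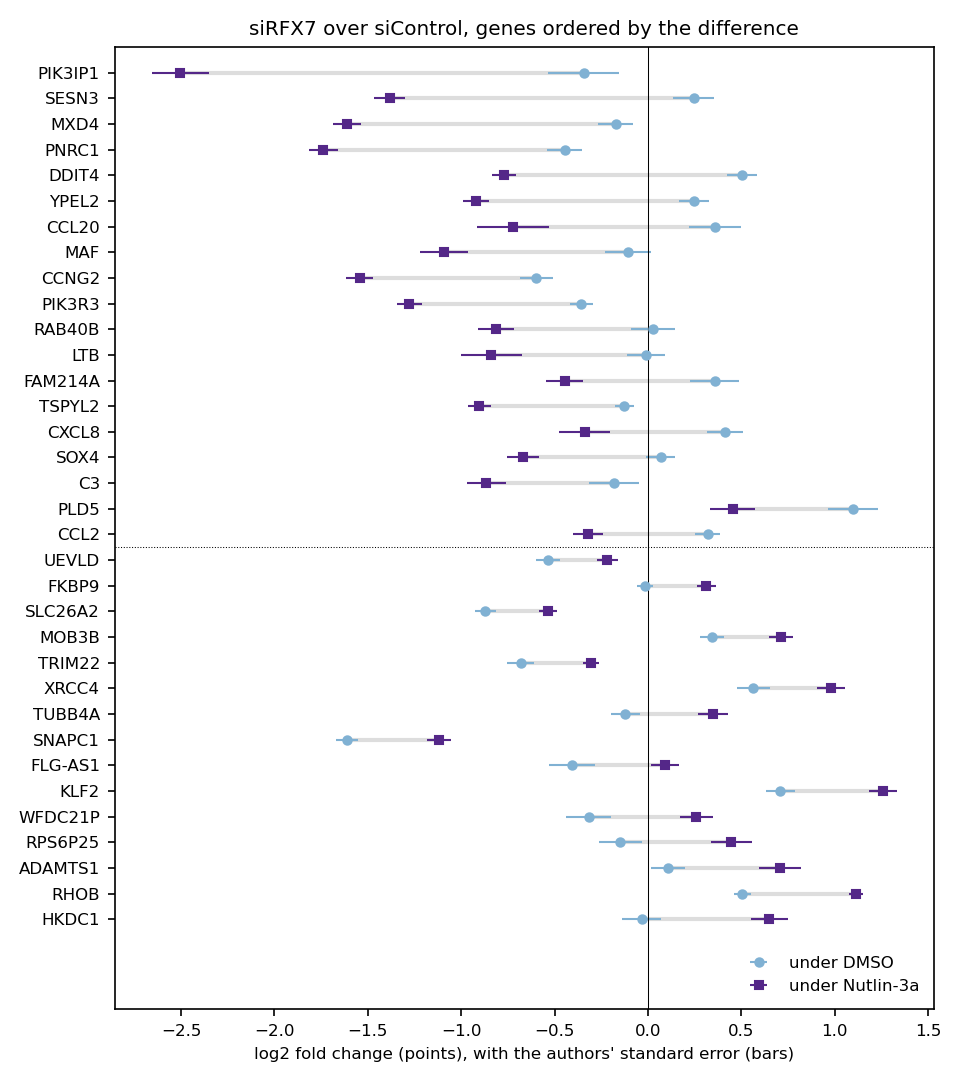
Log2 fold change of siRFX7 over siControl (x axis) under DMSO (circles) and under Nutlin-3a (squares) for 19 of the 20 lowest and the 15 highest called differences (y axis, dotted line between them), with the authors' standard errors of 4 against 4 libraries as bars. From the authors' deposited tables, DDIT4 moves from 0.50 to -0.77 and PIK3IP1 from -0.34 to -2.50, while RHOB is above 0 at both points (0.51 and 1.11).

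Several further lists held scattered calls. Of 35 hypoxia and glycolysis genes 4 were lower and 1 higher: besides DDIT4 the clock and hypoxia repressor BHLHE40 (-0.34 ± 0.07), the glucose transporter SLC2A3 (-0.34 ± 0.08) and the oxygen sensor EGLN1 (-0.24 ± 0.07), against NDRG1 (0.29 ± 0.06). Of 31 genes of the integrated stress and unfolded protein responses 2 were lower, DDIT4 and SESN2, and 1 higher, the cystine transporter gene SLC7A11 (0.31 ± 0.07). Of 37 TGF-beta and BMP genes 3 were lower: INHBA (-0.35 ± 0.08), an activin subunit, TGFBI (-0.30 ± 0.06), a matrix protein, and ID3 (-0.28 ± 0.07), an inhibitor of bHLH factors. Their medians were -0.05, 0.01 and -0.05. EGLN1, SLC7A11 and ID3 were not called with robust scaling (adjusted p = 0.226, 0.0555 and 0.125).

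Of 23 extracellular proteases and inhibitors 3 were lower, ADAMTS6 (-0.35 ± 0.09), MMP3 (-0.31 ± 0.08) and MMP2 (-0.21 ± 0.06), and 1 was higher, ADAMTS1. Robust scaling left 1 of these 4. In each of 5 further lists 1 gene was called lower and 0 higher: IRF1 of 28 interferon-stimulated genes (-0.37 ± 0.10), RFX5 of 8 RFX factors and partners, GABARAPL1 of 38 autophagy genes (-0.23 ± 0.06), ITGA3 of 38 matrix and integrin genes (-0.22 ± 0.05) and BHLHE40 of 18 clock genes. RPL3 (-0.19 ± 0.05) was the called one of 74 ribosomal protein genes (1.35%), 57 of which lay below 0 around a median of -0.07. Over all tested genes 0.937% were called, and 2.06% at base means of 1000 to 10000. In the longer of these lists 1 call therefore says little about the list. IRF1, GABARAPL1, ITGA3 and RPL3 did not pass with robust scaling (adjusted p from 0.0678 to 0.235).

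No member was called by the normal test in 7 lists: 46 ciliary genes, which other RFX factors control (median 0.00086), 20 BCL2 family genes (-0.05), 15 clustered histone genes (-0.11), 37 WNT genes (-0.04), 35 ribosome biogenesis genes (-0.03), 37 lysosome genes (-0.05) and the MAPK feedback list above. At an unadjusted p under 0.05 there were 2 ciliary genes, 5 of the BCL2 family, 2 histone genes, 0 WNT genes, 2 of ribosome biogenesis and 6 of the lysosome. Over all tested genes 6.32% had such a p and 0.937% were called, so 0 calls in lists of this length say little about them.

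Among weakly expressed genes the test could see large differences only. At a base mean of 10 to 100 the median SE of a difference was 0.41, and 8 of 5373 genes were called, the smallest at a size of 0.96. From 1000 to 10000 the median SE was 0.07, and 126 of 6110 genes were called, the smallest at 0.19. TRIM48 (-2.90 ± 0.78) and H3.Y (-1.79 ± 0.49), known targets of the embryonic factor DUX4, were called at mean base means of 25.6 and 98.7, as 2 of 11 members of a list with a median of -1.45. In the tables of siRFX7 over siControl 1 member of that list had a difference, KHDC1L, which was not called, and the list's value there turned to 0.70. H3.Y has near-identical copies, which makes its count uncertain. All 10 members of that list that rose in siControl also rose in siRFX7 by the authors' deposited tables. For ZSCAN4, TRIM43 and TRIM43B, the most highly expressed members not called, the differences were -1.63 ± 0.77, -1.32 ± 0.68 and -1.38 ± 0.94.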

How the data were processed

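Poly(A) RNA of U2OS cells was sequenced from a stranded kit, per the labels' protocols. The submitters' processing notes name hg38, bcl2fastq 2.19.1.403, Trimmomatic 0.39, FastQC 0.11.9, cutadapt 2.10, SAMtools 1.10, Picard, featureCounts 1.6.5 and DESeq2 1.20.0. The annotation is not given in the sources used here. The files are 4 tables of comparisons by the authors. Per the file headers, the base mean is a signal, the mean normalised read count over 8 libraries. The log2 fold change and its standard error are on the log2 scale as deposited. The deposited Wald statistic, a score, and the p-value and adjusted p-value the authors deposited follow from them, as recomputed. Whether fold changes were shrunken is not given in the sources used here.

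The difference per gene was the siRFX7 value of the log2 fold change of Nutlin-3a over DMSO, less the siControl value. Since no library is in both tables, the SE was the square root of the summed squared SEs. A two-sided normal test gave p-values, adjusted by Benjamini-Hochberg across 21339 genes and called under 0.05. The step was run on data simulated with the same SEs and normal law. That run checked the code and cannot show whether the SEs have the right size. Group levels were solved from base mean and fold change for groups of 4, and the tables' scales were joined by their median ratio, a shift of 0.40 (log2). Levels of a group from different tables then scattered by an SD of 0.002. Named genes were RFX7, the 20 lowest and 15 highest called differences that had a gene symbol and a mean base mean of 100 or more, called members of 36 gene lists, and up to 3 other members per list with the highest base mean; a few of these genes and lists are not reported here. The comparison, lists and motifs were chosen with earlier results of these data known. Alternatives were a stricter threshold, size and base mean minimums, centring, protein-coding genes only, the tables of siRFX7 over siControl, and statistics divided by their robust SD in 10 bins of base mean, where that SD ran from 0.747 to 1.24. Python 3.11.15, numpy 2.4.6, pandas 2.3.3, scipy 1.17.1 and matplotlib 3.10.9 were used.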

Additional observations from a re-analysis of the deposited data

Results flagged for a closer look

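In 96 named genes siRFX7 and siControl differed in their response to Nutlin-3a by the test of the difference itself, each at an adjusted p under 0.05. Values are log2 differences of the response, siRFX7 minus siControl, and their cause was not tested. Lower and higher refer to the response and not to the level. The level of SNAPC1, for instance, was lower in siRFX7 under each treatment, and that of CCNE1 was higher.

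Lower in siRFX7 were the growth brakes and candidate RFX7 targets PIK3IP1 (-2.17), SESN3 (-1.63), MXD4 (-1.44), PNRC1 (-1.30), DDIT4 (-1.28), YPEL2 (-1.17), CCNG2 (-0.94), TSPYL2 (-0.78), RFX5 (-0.64), TSPYL1 (-0.62), PDCD4 (-0.60), JUNB (-0.55), ABAT (-0.55) and TOB1 (-0.46). So were the signalling and stress genes PIK3R3 (-0.92), IGF1R (-0.29), SESN2 (-0.32), BTG1 (-0.48), KLHL24 (-0.54), CITED2 (-0.26), KLF9 (-0.57), TP53INP1 (-0.46), CDKN1A (-0.26), GABARAPL1 (-0.23) and MYC (-0.21). Among genes of the cell cycle the lower ones were CKS2 (-0.53), KIF2C (-0.35), PLK1 (-0.35), CDC20 (-0.33), CDCA8 (-0.33), CCNB1 (-0.32), CCNA2 (-0.31), INCENP (-0.30), CDCA3 (-0.28), UBE2C (-0.28), KIF20A (-0.27), BIRC5 (-0.25), GTSE1 (-0.24), KIF4A (-0.23), CCNB2 (-0.22), BUB1B (-0.21) and TPX2 (-0.20). With them went CCND1 (-0.33), CCNE1 (-0.28), E2F7 (-0.27), PCNA (-0.22) and MCM2 (-0.20).

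Of inflammatory and immune genes the lower ones were CCL20 (-1.08), LTB (-0.83), CXCL8 (-0.75), C3 (-0.68), CCL2 (-0.64), TNFAIP3 (-0.42), IRF1 (-0.37), BIRC3 (-0.33), NFKBIA (-0.32) and NFKB1 (-0.24). Early response, hypoxia and growth factor genes gave IER3 (-0.41), NR4A1 (-0.31), CTGF (-0.28), BHLHE40 (-0.34), SLC2A3 (-0.34), EGLN1 (-0.24), INHBA (-0.35), TGFBI (-0.30) and ID3 (-0.28). The remaining lower genes were TRIM48 (-2.90), H3.Y (-1.79), MAF (-0.99), RAB40B (-0.84), FAM214A (-0.80), SOX4 (-0.74), PLD5 (-0.65), ADAMTS6 (-0.35), MMP3 (-0.31), ITGA3 (-0.22), MMP2 (-0.21) and RPL3 (-0.19).

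Higher responses in siRFX7 were those of RHOB (0.61), HKDC1 (0.68), KLF2 (0.55), ADAMTS1 (0.60), WFDC21P (0.57), RPS6P25 (0.59), FLG-AS1 (0.50), SNAPC1 (0.49), TUBB4A (0.47) and XRCC4 (0.41). Smaller positive differences were those of TRIM22 (0.38), MOB3B (0.37), SLC26A2 (0.33), FKBP9 (0.33), UEVLD (0.32), SLC7A11 (0.31), NDRG1 (0.29) and RRM2B (0.26).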

How the results depend on the processing

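The count of 200 called differences (163 lower, 37 higher) became 125 (103 and 22) at an adjusted p under 0.01, 51 (44 and 7) at a size of at least 0.5, 14 (14 and 0) at a size of at least 1, and 132 (109 and 23) with statistics divided by their robust SD. By construction, stricter thresholds call fewer genes; the cause of the drop with robust scaling was not tested. A base mean of at least 10 or 100, a size of at least 0.25, centring, protein-coding genes only and the tables of siRFX7 over siControl left the 3 counts within 1.5 times, and 195 genes were called both from these tables and from those of Nutlin-3a over DMSO. Of the 100 genes that the rule for naming picked, 0 reversed direction under these alternatives, 32 were no longer past the threshold with robust scaling, and FLG-AS1 missed it in the tables of siRFX7 over siControl (adjusted p = 0.0512). The median of the DUX4 targets became 0.70 in those tables, where 1 member remained. The count of called members moved by more than 1.5 times in 10 of 29 lists with robust scaling and in 9 at an adjusted p under 0.01. Precision was limited by depth: the median SE of a difference was 0.41 at base means of 10 to 100 and 0.89 below 10, where 0 of 2750 genes were called. No paired analysis was possible because the tables hold no single library, and for the same reason no library could be left out and no other normalisation or count model was run.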

Other observations

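Of the 200 called genes, 121 belong to none of the gene lists, and the genes named here were chosen after their values were seen. Lower and higher refer here to the response to Nutlin-3a and not to the level. Those called lower in siRFX7 that fell in both authors' deposited tables include the kinesins KIFC1 (-0.31 ± 0.06, SE) and KIF18B (-0.26 ± 0.07), CCNF (-0.25 ± 0.06), the cyclin F gene, WEE1 (-0.29 ± 0.07), a kinase that holds CDK1 inactive, HJURP (-0.28 ± 0.07), which loads the centromeric histone, the cohesin guard CDCA5 (-0.28 ± 0.06), the condensin subunit NCAPH (-0.24 ± 0.05), the spindle genes CKAP2 (-0.34 ± 0.06) and TACC3 (-0.22 ± 0.05), and the nuclear importer KPNA2 (-0.20 ± 0.05). Others called lower were CD70 (-0.49 ± 0.11), a ligand of the tumour necrosis factor family, and TRAF1 (-0.45 ± 0.08) and TNIP1 (-0.23 ± 0.05), which act downstream of that family's receptors, and all 3 rose in siControl by the authors' deposited table.

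Also called lower were the transcription factor genes SOX9 (-0.35 ± 0.08), HES1 (-0.56 ± 0.13), a Notch effector, and TSC22D1 (-0.46 ± 0.07). VGLL4 (-0.30 ± 0.08), a TEAD cofactor, had log2 fold changes of siRFX7 over siControl of 1.14 with DMSO and 0.84 with Nutlin-3a by the authors' deposited tables. The adhesion and surface genes CD44 (-0.27 ± 0.07), CD82 (-0.44 ± 0.09), CLDN1 (-0.50 ± 0.09) and CDH2 (-0.24 ± 0.05) were called lower too. The level of CLDN1 was higher in siRFX7 under each treatment, 826 and 873 in siControl against 2031 and 1520 in siRFX7. NEDD9 (-0.59 ± 0.09), a focal adhesion scaffold, rose by 0.34 in siControl and fell by 0.25 in siRFX7 by the authors' deposited tables. PNRC2 (-0.30 ± 0.07), a relative of PNRC1 that promotes mRNA decapping, was not called in siControl and fell in siRFX7 by the authors' deposited tables. A higher response in siRFX7 was called for the cytoskeletal genes NEFL (0.22 ± 0.06) and MAP1A (0.30 ± 0.08) and the metabolic genes IDH1 (0.26 ± 0.07) and BCAT1 (0.22 ± 0.06). The same held for the surface proteins CSPG4 (0.26 ± 0.06) and NTM (0.30 ± 0.07). The level of NEFL was lower in siRFX7 under each treatment, 3829 and 7775 in siControl against 2067 and 4892 in siRFX7.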
